A study of Mus musculus with 7 samples.

Results

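A set of 10 secreted regulators of Wnt signalling was followed through a single-cell RNA-seq data set of the mouse seminal vesicle. They were the ligands *Wnt2*, *Wnt4*, *Wnt5a* and *Wnt11*, the agonist *Rspo3*, and the inhibitors *Wif1*, *Sfrp1*, *Sfrp2*, *Frzb* and *Dkk2*. They were chosen by name, with earlier results of these data known, among the 30406 genes that both gene references of the data set hold. They are not all Wnt ligands and regulators, and others are given below as further genes of the pathway. All 10 had at least 1 UMI (unique molecular identifier, the count of 1 captured RNA molecule) in a cell that passed the filters. Their UMIs were summed per mouse over cells sorted by a few marker genes, none of them a Wnt gene. The tissue came from 23 male mice on the 10x Genomics platform. One library pooled 10 C57BL/6J mice on chow, with 2 mice each at 3 months, at 20 months with and without rapamycin, and at 28 months with and without rapamycin. A second library pooled 8 FVB/NJ mice of 3 months, with 2 mice each on a control diet, caloric restriction, a high fat diet and a low protein diet. In both pools the mice were told apart by multiplexing tags. Another 3 FVB/NJ mice of 3 months were run as single-mouse libraries, 1 on each of the control, low protein and high fat diets. The last 2 libraries came from 1 young (3 months) and 1 old (18 months) FVB/NJ mouse on the control diet.

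Wnt proteins are secreted glycolipoproteins that act over short distances by binding Frizzled receptors with the co-receptors LRP5 and LRP6, which stabilises β-catenin, or by Frizzled and Ror receptors without β-catenin. Secreted proteins tune this step from outside the cell: R-spondins raise the amount of Frizzled at the surface by drawing off the ubiquitin ligases RNF43 and ZNRF3, whereas WIF1 and the secreted frizzled-related proteins bind Wnt ligands and DKK proteins bind the co-receptor. In the male reproductive tract these signals pass between a fibromuscular stroma and the epithelium that it surrounds, and the seminal vesicle epithelium, made of basal and secretory cells, grows and secretes under androgen.

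The genes lie apart in GRCm38, the build of the reference annotation. *Wnt2* is at chr6:17988940-18030585, *Wnt4* at chr4:137277489-137299726, *Wnt5a* at chr14:28504750-28527448 and *Wnt11* at chr7:98835112-98855195. *Rspo3* is at chr10:29452416-29535867 and *Wif1* at chr10:121033960-121100650, far apart on the same chromosome, and *Sfrp2* (chr3:83766321-83774316) and *Dkk2* (chr3:132085292-132180304) also share one. *Frzb* is at chr2:80411970-80447625 and *Sfrp1* at chr8:23411502-23449632. *Wnt2*, *Rspo3* and *Frzb* are on the minus strand and the other members on the plus strand. Counts cover whole genes, so no value below belongs to a single exon or transcript.

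Of 53352 deposited cell barcodes, 40342 passed the filters, and 22065 of those belonged to the 21 mice outside the young and the old individual. In these 21 mice the gates gave 1706 fibroblasts (*Col1a1* and *Col1a2*), 580 smooth muscle cells (*Myh11*), 453 endothelial cells (*Pecam1*), 1765 basal cells (*Krt5* and *Krt14*), 9765 secretory cells (a high share of seminal vesicle secretory, Svs, RNA) and 1689 immune cells (*Ptprc* and *Laptm5*), and left 5904 cells, 26.8%, in no class. Most markers that the gates did not use followed the labels, and the immune list did not. *Dcn*, a fibroblast proteoglycan, had a median of 5006 CPM (the usual scaling of a gene's UMIs to the total UMIs of a class in 1 mouse) in fibroblasts and 19.7 CPM in secretory cells, *Acta2* had 13090 CPM in smooth muscle, *Cdh5* had 1013 CPM in endothelial cells and *Krt15* had 1426 CPM in basal cells. The summed immune markers *Cd52*, *Tyrobp* and *Cd3g*, however, had higher medians in secretory than in immune cells of both pools (4829 against 2294 CPM in the aging pool and 5034 against 3127 CPM in the diet pool), with *Cd52* alone at a median of 4863 CPM in secretory cells of the 21 mice. Summed UMIs per mouse ran from 974010 to 14753284 in the pools and from 35673458 to 46338707 in the 3 single-mouse diet libraries, and any pair of libraries shared at most 0.407% of the barcodes of the smaller one. The young and the old individual stood apart. No cell of either met the secretory gate, and their fibroblasts carried all 7 of the 7 epididymis epithelium markers that were checked (*Lcn8*, *Lcn9*, *Gpx5*, *Crisp1*, *Adam7*, *Spink12* and *Rnase10*) at a summed 7483 and 14140 CPM. This was not particular to fibroblasts. In the other gated classes of these libraries the sum ran from 3099 CPM in basal cells to 16740 CPM in endothelial cells. The source of this RNA was not tested. In the fibroblasts of the other 21 mice the sum ran from 0 to 318 CPM, with *Lcn9* and *Spink12* at 0 in every mouse. Their 1077 fibroblasts are therefore given on their own, and every test below uses the other 21 mice unless it names those libraries.

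Most of these members were stromal. *Wnt2*, *Wnt4*, *Wnt5a*, *Rspo3*, *Wif1*, *Sfrp1* and *Sfrp2*, which are the 7 members with enough counts to be tested, were all higher in fibroblasts than in the other gated cells of the same mouse, where 27.2% of all genes tested were called higher. *Wnt11*, *Frzb* and *Dkk2* had too few UMIs to enter that test. The filter on low counts keeps a gene that passes on either side of a comparison. A member low in the other cells (medians of 2.16 to 24.3 CPM for the 7) can thus enter through the fibroblast side. Counts of members called in 1 direction, here and in the class and *Clec3b* comparisons below, are in part set by that filter. Levels are given as CPM and differences as log2 fold changes with their standard errors from the quasi-likelihood test of edgeR, in which each mouse was a block, with p-values adjusted by Benjamini-Hochberg across every gene in the fit. Ranges, overlaps and counts of mice use CPM, without the scaling between samples that the fit applies. How many of all genes lay apart or rose in as many mice by CPM was not counted.

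**Figure D1:**
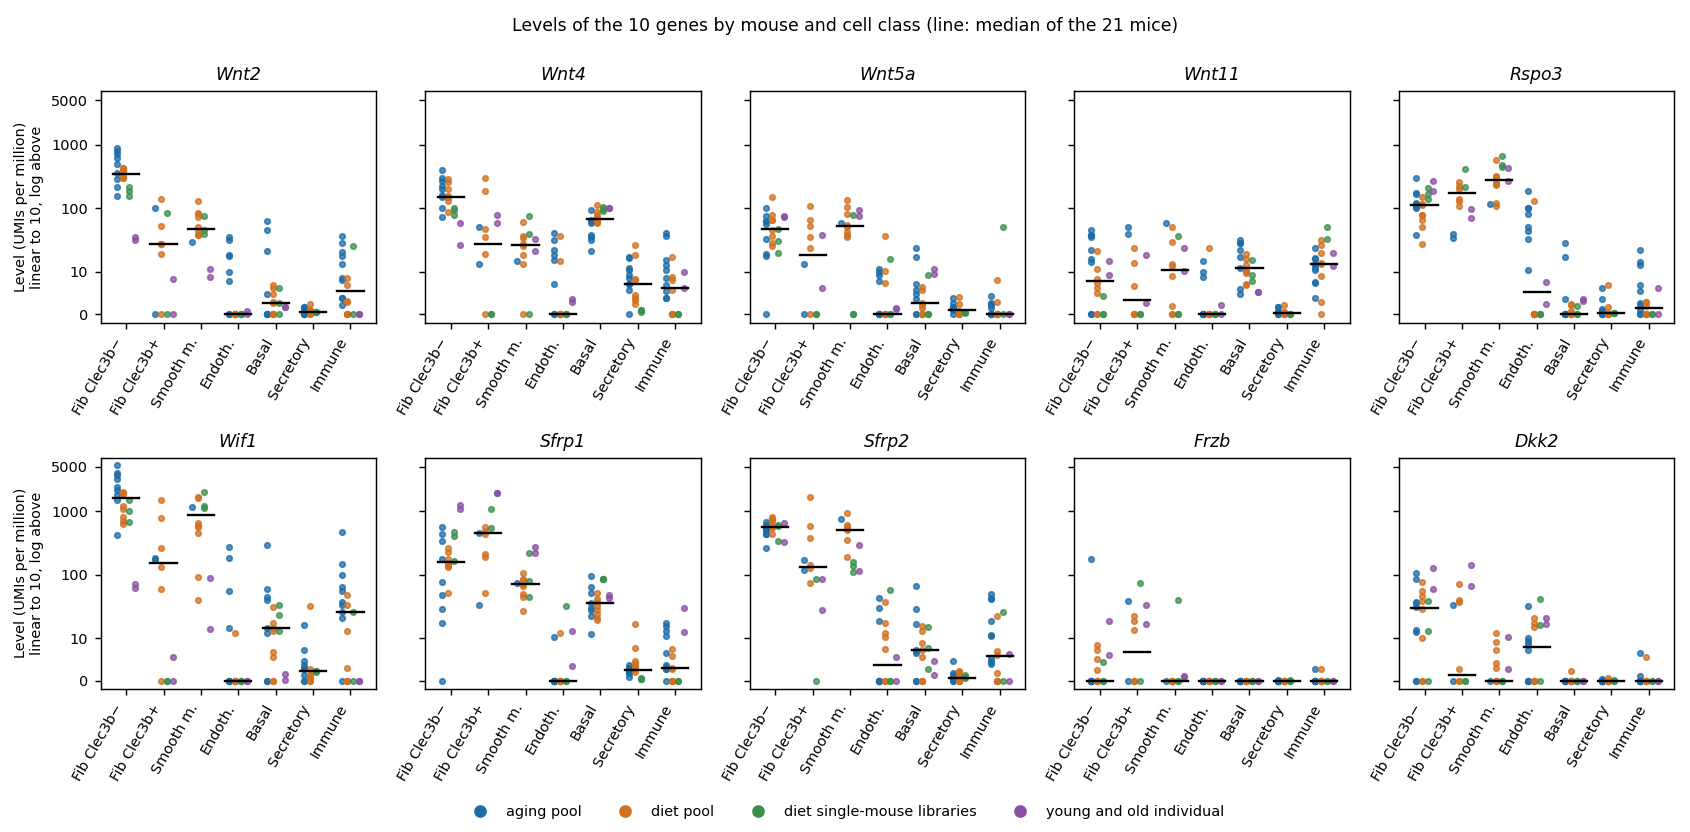
CPM of each of the 10 Wnt ligands and secreted Wnt regulators (axis linear to 10 and logarithmic above) in the cell classes, with 1 point, coloured by library set, for each mouse that had at least 10 cells of the class and a line at the median of the 21 mice. *Wnt2*, *Wif1* and *Sfrp2* sit highest in fibroblasts negative for *Clec3b*, with medians of 350, 1641 and 560 CPM, *Rspo3* sits highest in smooth muscle at 281 CPM, and *Wnt11* has no class above 13.2 CPM.

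Among the ligands, *Wnt2* had the sharpest stromal pattern. Its fibroblast level ran from 136 CPM over a median of 283 to 531 CPM in 21 mice, and the level in the other gated cells ran from 0.511 over 3.86 to 14.1 CPM. The ranges did not overlap, *Wnt2* was higher in fibroblasts in 21 of 21 mice, and the difference was 5.05 ± 0.20 (log2, adjusted p = 1.29e-17). *Wnt4*, a ligand best known from kidney and female tract development, ran from 23.9 over 133 to 311 CPM in fibroblasts and from 1.64 over 14.7 to 21.9 CPM elsewhere. It too was higher in 21 of 21 mice without overlap, by a smaller 2.17 ± 0.14 (adjusted p = 1.42e-13). The gap between the ranges was narrow. The lowest fibroblast value came from a 20-month rapamycin mouse, a group whose mice had 11 and 22 fibroblasts. *Wnt5a*, the prototype of ligands that signal without β-catenin, was sparser, at 0 to 126 CPM with a median of 43.0 CPM in fibroblasts and a median of 2.16 CPM elsewhere. It was higher in 20 of 21 mice, by 2.69 ± 0.25 (adjusted p = 2.99e-10), and the ranges overlapped. *Wnt11*, another ligand of that kind, had 66 UMIs in fibroblasts and 259 in all other gated cells. Its fibroblast median was 12.6 CPM. Immune cells, the class used to gauge free RNA, had the highest *Wnt11* median of the gated classes, at 13.2 CPM. Secretory cells had 0.283 CPM and endothelial cells 0 CPM. The immune class therefore set no background level for *Wnt11*, and fibroblast expression could not be judged against it. The source of the immune UMIs was not tested.

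*Rspo3*, the R-spondin of the set, ran from 23.1 over 117 to 227 CPM in fibroblasts and from 0.511 over 7.68 to 102 CPM in the other gated cells. The ranges overlapped between mice, but within each of the 21 mice fibroblasts were higher, by 2.67 ± 0.37 (adjusted p = 3.97e-07). The inhibitor *Wif1* was the most abundant member by UMI count. It ran from 332 over 1240 to 3989 CPM in fibroblasts and from 2.93 over 24.3 to 133 CPM elsewhere. No mouse overlapped with the other range, and the difference was 4.55 ± 0.25 (adjusted p = 5.56e-15).

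The frizzled-related inhibitors did not share 1 profile. *Sfrp2* ran from 234 over 424 to 1178 CPM in fibroblasts and from 0.775 over 7.77 to 112 CPM elsewhere, with no overlap and a difference of 4.13 ± 0.25 (adjusted p = 5.99e-14). *Sfrp1* ran from 0 over 182 to 543 CPM in fibroblasts and from 1.35 over 7.11 to 35.9 CPM elsewhere. It was higher in 20 of 21 mice, by 3.44 ± 0.33 (adjusted p = 6.17e-10), and the exception was a 20-month rapamycin mouse with 22 fibroblasts and no *Sfrp1* UMI in them. *Frzb*, the third of this group, had 53 fibroblast UMIs and 6 elsewhere, and 30 of the 53 came from 1 mouse, 28-month mouse 2, at 153 CPM. *Dkk2*, which binds the LRP co-receptors, had 150 UMIs in fibroblasts and 39 elsewhere, and its fibroblast level ran from 0 over 27.5 to 71.8 CPM.

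Within the library sets each member that could be tested was again called higher, which left out *Wnt5a* and *Sfrp1* in the aging pool. For *Wnt2* the difference was 5.21 in the aging pool, 4.82 in the diet pool and 5.46 in the 3 single-mouse diet libraries. *Rspo3* varied most, at 2.88, 1.51 and 5.50 in the same order. Under a strict collagen gate of 10 UMIs, which left 3 mice, *Wnt4* (0.37, adjusted p = 0.823) and *Wnt5a* (1.48, 0.0915) were no longer called and the other 5 members were. Of 70 other genes of the pathway (receptors, further ligands and intracellular components) 20 could be tested, 11 were higher in fibroblasts and 3 lower, with a median difference of 0.35 beside 3.44 for the 7 members and -0.10 for all genes. The largest rises were in the receptor *Fzd1* (4.03 ± 0.21), the ligand *Wnt6* (3.74 ± 0.26) and *Notum* (3.30 ± 0.28), whose product removes the lipid that Wnt ligands need. The acrosomal gene *Dkkl1* (-6.08 ± 0.28), *Tnfrsf19* (-1.61 ± 0.24) and the transcription factor *Tcf7l2* (-0.52 ± 0.19) were lower by the fit, which scales samples by trimmed means (TMM). Secretory cells, which dominate the other gated cells, hold much Svs RNA, so the scaling sets where no change lies. With library totals in place of TMM the median difference of all genes moved from -0.10 to 1.25, the calls from 1664 higher and 2177 lower to 5039 higher and 358 lower, and *Tcf7l2* turned to 0.82. By CPM *Tcf7l2* was higher in fibroblasts in 18 of 21 mice, so counts of mice by CPM can differ from the fit. All 7 members were higher under both scalings.

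Smooth muscle carried some of the members that fibroblasts carried, and the 2 classes were not tested against each other. In 12 mice with at least 10 such cells, *Rspo3* was higher in smooth muscle than in the other gated cells, as were *Wif1*, *Sfrp2* and *Wnt5a*, 4 of the 7 members tested, where 20.1% of all genes were called higher. *Wnt4* was lower, where 24.6% of genes were called lower. *Rspo3* ran from 109 over 281 to 670 CPM in smooth muscle and from 0.511 over 5.09 to 47.5 CPM in the others, without overlap, and the difference was 4.19 ± 0.40 (adjusted p = 2.91e-08). *Wif1* ran from 40.0 over 882 to 2019 CPM, *Sfrp2* from 112 over 508 to 938 CPM and *Wnt5a* from 0 over 52.7 to 134 CPM in smooth muscle, and their differences were 2.39 ± 0.56 (adjusted p = 0.00166), 2.36 ± 0.30 (1.72e-06) and 2.11 ± 0.36 (7.32e-05). *Wif1* in smooth muscle was lowest in the 2 caloric restriction mice, at 90.5 and 40.0 CPM, and at or above 461 CPM in the other 10. *Wnt2*, at a median of 47.7 CPM in smooth muscle, differed by 0.20 ± 0.30 (adjusted p = 0.625) and *Sfrp1* by 0.59 ± 0.32 (0.145), so neither was called. *Wnt4* had medians of 26.4 CPM in smooth muscle and 26.7 CPM in the others, overlapped, and was lower by the fit by -1.13 ± 0.29 (adjusted p = 0.00384). These 3 results depended on the scaling: with library totals *Wnt4* was at -0.11 (adjusted p = 0.840) and no longer called, and *Wnt2* (adjusted p = 0.0145) and *Sfrp1* (1.98, 0.00334) were called higher.

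Pericyte markers were present in the smooth muscle gate, with *Rgs5* at a median of 519 CPM, *Kcnj8* at 68.1 CPM and *Pdgfrb* at 46.7 CPM, and their part in these values was not tested. The fibroblast gate was also met by 100 of 477 smooth muscle cells in the diet pool, 6 of 45 in the single-mouse libraries and 2 of 58 in the aging pool. With such cells left out 3 of 6 members tested were higher and 1 lower. With at least 30 cells, in 4 mice, 3 of 8 were higher and 1 lower. Within the diet pool alone *Wif1* was 1.28 higher (adjusted p = 0.0674), below the threshold, and in the single-mouse libraries it was 4.42 higher. The aging pool had 1 mouse with 10 smooth muscle cells and could not be fitted alone. Of the wider pathway 9 genes were tested, with *Nkd1*, a cytoplasmic antagonist, higher by 1.47 ± 0.24, the receptor *Ryk* higher by 0.68 ± 0.25 and the Wnt carrier *Wls* lower by -0.58 ± 0.18. Their median was 0.15, beside 2.11 for the members and -0.09 for all genes. With library totals that all-gene median rose to 1.06, calls went from 915 higher and 1120 lower to 3040 higher and 199 lower, and *Wls* turned to 0.65.

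In the epithelium *Wnt4* was the member that stood out. In 19 mice it ran from 21.4 over 67.3 to 113 CPM in basal cells and from 1.06 over 15.0 to 43.8 CPM in the other gated cells. By CPM basal cells were higher in 19 of 19 mice although the ranges overlapped. The fitted difference was 1.10 ± 0.28 (adjusted p = 0.00154), and 33.3% of all genes were called higher there. CPM scales by library totals, and with library totals in the fit 5001 of 6254 genes were called higher in basal cells. *Wnt4* was 1 of the 5 members tested in basal cells. *Wnt2*, *Wif1* and *Sfrp2* were lower, by -2.62 ± 0.45, -3.11 ± 0.46 and -3.16 ± 0.46 (adjusted p from 2.81e-06 to 2.20e-05), where 35.3% of genes were called lower. *Sfrp1* ran from 11.4 over 35.7 to 93.9 CPM in basal cells and from 1.49 over 12.4 to 112 CPM elsewhere, with a difference of 0.56 ± 0.38 (adjusted p = 0.199), which with library totals was 1.90 and called (0.00229). That pooled value joined opposite ones, since *Sfrp1* was 0.98 higher in the aging pool (adjusted p = 0.0615), 2.73 higher in the single-mouse libraries (9.01e-11) and -0.79 lower in the diet pool (0.00815). *Wnt11* had a basal median of 11.4 CPM and was by CPM above the other gated cells in 18 of 19 mice, but on 84 UMIs it was not tested.

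Within the aging pool alone the basal difference of *Wnt4* was 0.47 (adjusted p = 0.101), below the threshold, and it was 0.68 in the diet pool (0.00475) and 3.58 in the single-mouse libraries (3.11e-13). Prostate-type markers (*Tgm4* and *Pbsn*, both detected) were summed at a median of 591 CPM in basal cells of the aging pool, 196 CPM in the diet pool and 0 in the single-mouse libraries, and their part in these values was not tested. Of 21 further pathway genes tested in basal cells 13 were higher and 5 lower, with a median of 0.48 beside -2.62 for the 5 members and -0.01 for all genes. The epithelial ligands *Wnt7b* (2.36 ± 0.26) and *Wnt10a* (1.66 ± 0.32) and the glypican *Gpc4* (1.86 ± 0.29) rose most. *Dkkl1* (-4.85 ± 0.45), *Nkd1* (-1.42 ± 0.23) and *Tnfrsf19* (-0.94 ± 0.21) were lower, and *Tnfrsf19* turned to 0.51 with library totals, which moved the all-gene median to 1.36 and the calls from 2085 higher and 2210 lower to 5001 and 351.

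Endothelial cells and secretory cells held little of the members. In endothelial cells of 18 mice *Wnt2*, *Wnt4*, *Wif1* and *Sfrp2*, 4 of 5 members tested, were lower than in the other gated cells, by -2.43 ± 0.39, -1.99 ± 0.33, -3.46 ± 0.43 and -2.94 ± 0.38 (adjusted p from 6.12e-08 to 5.49e-06), where 37.2% of genes were called lower. The median of *Wnt2*, *Wnt4* and *Wif1* there was 0 CPM and that of *Sfrp2* was 3.68 CPM, at or below the immune class. With library totals *Wnt4* was at -0.66 and no longer called (adjusted p = 0.131), and *Rspo3* was called at 1.75 (0.00575). *Rspo3* behaved differently between libraries. All 8 endothelial sums of the aging pool held it, from 10.6 to 186 CPM, against 1 of 7 in the diet pool (caloric restriction mouse 1, 130 CPM on 7 UMIs) and 0 of 3 among the single-mouse diet libraries. The fitted difference was 1.76 in the aging pool (adjusted p = 2.48e-04), -2.07 in the diet pool (0.00748) and 0.52 ± 0.43 over all 18 mice (0.301). C57BL/6J strain and aging pool library cannot be told apart here, and the difference between the pools was not itself tested. The summed lymphatic endothelial markers *Lyve1* and *Prox1* moved with it, at medians of 3013 CPM in the aging pool, 475 CPM in the diet pool and 273 CPM in the single-mouse libraries, and their part was not tested. *Dkk2* had a median of 7.95 CPM in endothelial cells, its second highest class, on 16 UMIs. Of 16 other pathway genes tested 5 were higher, led by *Fzd4* (3.76 ± 0.27), the endothelial Frizzled, *Tcf7l1* (1.92 ± 0.28) and *Ctnnb1* (1.43 ± 0.12), which encodes β-catenin. Another 6 were lower, led by *Dkkl1* (-5.98 ± 0.34), *Tnfrsf19* (-2.95 ± 0.45) and *Nkd1* (-2.02 ± 0.31). The medians were -0.20 for that list, -2.43 for the members and -0.15 for all genes, and library totals moved the last to 1.36 and the calls from 1854 higher and 2536 lower to 5021 and 427.

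In secretory cells of 21 mice 8 of the 8 members tested were lower, where 48.5% of genes were called lower. Their medians ran from 0.191 to 7.17 CPM in secretory cells and from 12.2 to 335 CPM in the other gated cells. The filter on low counts could thus pass them through the other cells, and the count of 8 is no test of the set. The differences ran from -1.04 ± 0.31 for *Wnt4* to -4.68 ± 0.34 for *Wif1*, with *Sfrp2* at -4.67, *Rspo3* at -4.44, *Wnt2* at -4.29, *Wnt11* at -3.49, *Sfrp1* at -2.75 and *Wnt5a* at -1.56. *Wnt4* kept the highest secretory median of the 10, 7.17 CPM with a highest mouse at 26.1 CPM, near its immune median of 6.25 CPM, and within the aging pool its difference was 0.03 (adjusted p = 0.904). Of 24 other pathway genes tested 6 were higher and 14 lower. *Dkkl1* was higher by 5.52 ± 0.22, *Tnfrsf19* by 2.66 ± 0.16 and *Tcf7l2* by 1.17 ± 0.13, and *Fzd1* (-3.45 ± 0.22), *Lef1* (-2.96 ± 0.25) and *Dkk3* (-2.87 ± 0.44) were lower. The medians were -0.41 for the list, -3.89 for the members and -0.24 for all genes, and with library totals the last moved to -2.34, the calls from 2660 higher and 3873 lower to 254 and 7466, and *Tcf7l2* to -0.91.

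**Figure D2:**
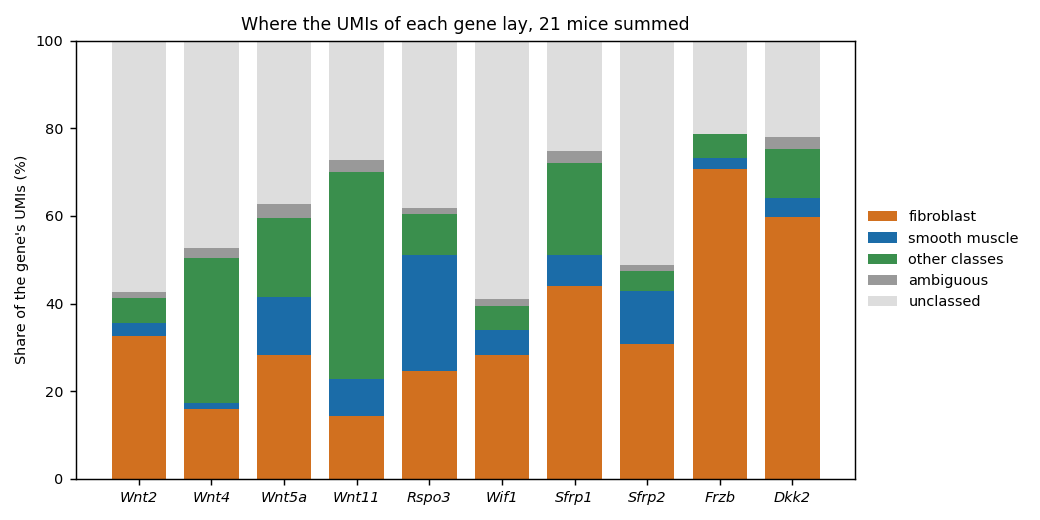
Share (percent) of each member's UMIs in the 21 mice that came from fibroblasts, smooth muscle, other gated classes, ambiguous cells and cells in no class. Fibroblasts gave 32.7% of *Wnt2* and 28.2% of *Wif1* UMIs and cells in no class 57.3% and 59.0%, while 32.9% of *Wnt4* and 47.2% of *Wnt11* UMIs came from other classes.

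A large part of these UMIs lay outside the gates. Of 20534 *Wif1* UMIs in the 21 mice 28.2% were in gated fibroblasts, 5.90% in smooth muscle and 59.0% in cells that met no gate, and the same shares were 32.7%, 2.77% and 57.3% for the 4118 UMIs of *Wnt2*. When 1 collagen UMI sufficed for the fibroblast gate, a setting added after the data were seen, 3711 cells qualified and held 72.0% of *Wif1*, 74.3% of *Wnt2*, 68.2% of *Sfrp2* and 50.9% of *Rspo3* UMIs. The pooled fibroblast level was then 1428 CPM in place of 1217 CPM for *Wif1*, 296 in place of 283 for *Wnt2*, 480 in place of 471 for *Sfrp2* and 161 in place of 251 for *Sfrp1*. All 7 members were again called higher in fibroblasts, while the basal difference of *Wnt4* fell to 0.47 and was no longer called (adjusted p = 0.123). *Wnt4* stayed the least stromal of the abundant members, with 40.4% of its 3587 UMIs in fibroblasts under the wider gate.

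Fibroblasts were then split by *Clec3b*, which encodes the secreted plasminogen-binding protein tetranectin, into 356 cells with a *Clec3b* UMI and 1350 without. The positive share per mouse had medians of 25.8% in the aging pool, 16.7% in the diet pool and 14.8% in the single-mouse diet libraries. Median depth was 2700 UMIs in positive and 2399 UMIs in negative cells. In 10 mice with at least 10 cells of each kind, *Wnt2*, *Wif1*, *Sfrp2* and *Wnt4* were higher in the *Clec3b*-negative cells, 4 of 6 members tested, where 5.03% of all genes were called higher in negative cells and 7.42% lower. No member was called lower in negative cells.

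**Figure D3:**
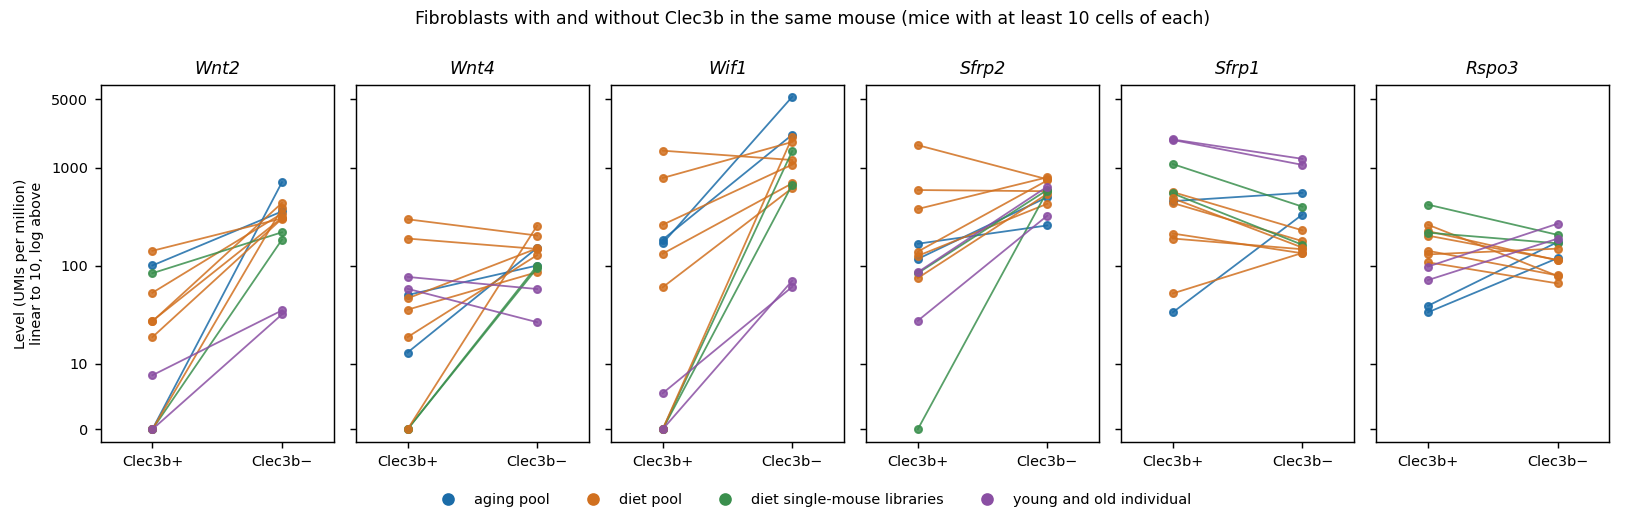
CPM of the 6 tested members (axis linear to 10 and logarithmic above) in *Clec3b*-positive and *Clec3b*-negative fibroblasts of the same mouse, joined by a line, for 10 mice and, in a colour of their own, the young and the old individual. *Wnt2* is higher in the negative cells in 10 of 10 mice and *Wif1* in 9 of 10, whereas *Sfrp1* is higher in the positive cells in 7 of 10.

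*Wnt2* ran from 185 over 325 to 713 CPM in negative and from 0 over 27.3 to 142 CPM in positive cells. Every negative sum lay above every positive sum, and the difference was 3.02 ± 0.36 (adjusted p = 2.36e-05). *Wif1* ran from 621 over 1340 to 5300 CPM in negative and from 0 over 151 to 1495 CPM in positive cells, a difference of 2.77 ± 0.48 (adjusted p = 6.18e-04). It was at 0 in the positive cells of low protein mouse 1 and of both single-mouse libraries in the test, and the 1 mouse against the direction, control mouse 1, had 1495 CPM in its 16 positive cells. *Sfrp2* ran from 258 over 578 to 800 CPM in negative and from 0 over 133 to 1702 CPM in positive cells. It was higher in negative cells in 8 of 10 mice, by 1.28 ± 0.37 (adjusted p = 0.0297). *Wnt4* ran from 86.2 over 139 to 257 CPM against 0 over 27.2 to 299 CPM, again with 8 of 10 mice in that direction, by 1.21 ± 0.38 (adjusted p = 0.0440).

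*Sfrp1* leaned the other way without passing the test. It ran from 134 over 171 to 556 CPM in negative and from 33.6 over 447 to 1091 CPM in positive cells, a difference of -0.74 ± 0.32 (adjusted p = 0.159). *Rspo3* ran from 66.2 over 117 to 207 CPM against 33.6 over 173 to 421 CPM, a difference of -0.52 ± 0.28 (adjusted p = 0.298). For both genes the positive cells were higher in 7 of 10 mice and the ranges overlapped. *Wnt5a*, *Wnt11*, *Frzb* and *Dkk2* did not pass the filter on low counts, and *Dkk2* had 102 UMIs in negative and 14 in positive cells.

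With every cell thinned to 1000 UMIs, so that depth could not set what was seen, only 4 of the 10 mice had enough cells of both kinds. The mice thus changed together with the depth, and the part of each in the values that follow was not tested. *Wif1* then had 539 UMIs in 690 negative cells and 1 UMI in 139 positive cells, a difference of 6.32 ± 0.58 (adjusted p = 4.49e-06). *Wnt2* differed by 4.10 ± 0.66 (6.96e-04), *Sfrp2* by 3.28 ± 0.45 (1.89e-04), and *Sfrp1* by -1.77 ± 0.24 (1.66e-04), now past the threshold and higher in positive cells. *Wnt4* had too few thinned UMIs for a test, with 75 in negative and 3 in positive cells. Within the diet pool, which gave 6 of the 10 mice, *Wnt2* (2.98, adjusted p = 1.65e-04) and *Wif1* (2.00, 0.0242) were higher in negative cells, *Sfrp1* (-1.05, 0.0226) and *Rspo3* (-0.92, 0.0242) were lower, and *Sfrp2* (0.98, 0.190) and *Wnt4* (0.97, 0.210) did not pass. Within the aging pool, with 2 mice, *Wif1* was called (4.28, 0.00725) and *Wnt2* was not (3.47, 0.1003). The single-mouse libraries gave no call. The split of *Rspo3* differed between the pools in a test of the difference itself, by 2.84 ± 0.58 (adjusted p = 0.0352), with negative cells higher in the aging pool on 5 *Rspo3* UMIs in positive cells.

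Some markers of other cells moved with the split. *Acta2* and *Tagln*, smooth muscle genes, had medians of 231 and 347 CPM in negative cells and 26.7 and 47.2 CPM in positive cells, far below the 13090 and 13810 CPM of smooth muscle. In the diet pool the 3 mesothelial markers *Msln*, *Upk3b* and *Lrrn4*, all detected, were summed at 0 to 812 CPM with a median of 537 CPM in the positive cells and 0 to 3.63 CPM in its negative cells, where *Msln* and *Lrrn4* were at 0. Their part in the split was not tested. Of the 5 other pathway genes tested *Wnt6* (2.16 ± 0.40) and *Fzd1* (2.04 ± 0.28) were higher in negative cells and none was lower, with a median of 0.31 beside 1.24 for the members and 0.01 for all genes.

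The upstream stretches of the 4 members called higher in *Clec3b*-negative fibroblasts are shown because these genes changed together in the split. Each line gives the bases just before the gene in GRCm38.p6, as read from RefSeq, from up to 250 bases upstream to the last base before both the RefSeq and the annotated start, 5′ to 3′ on the gene's strand. Capitals mark 2 motifs on either strand. The GC box, a common binding site of Sp1-type factors, is GGGCGG, and adjoining copies can run together. The TATA box, found at a minority of starts, is TATAAA. The stretches are chr6:18030586-18030695 on the minus strand for *Wnt2*, chr4:137277385-137277488 on the plus strand for *Wnt4*, chr10:121033754-121033959 on the plus strand for *Wif1* and chr3:83766071-83766320 on the plus strand for *Sfrp2*.
Wnt2: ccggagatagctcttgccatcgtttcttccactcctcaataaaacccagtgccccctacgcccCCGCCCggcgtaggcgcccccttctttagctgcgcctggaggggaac
Wnt4: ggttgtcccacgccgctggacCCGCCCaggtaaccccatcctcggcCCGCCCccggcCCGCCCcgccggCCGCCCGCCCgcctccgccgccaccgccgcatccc
Wif1: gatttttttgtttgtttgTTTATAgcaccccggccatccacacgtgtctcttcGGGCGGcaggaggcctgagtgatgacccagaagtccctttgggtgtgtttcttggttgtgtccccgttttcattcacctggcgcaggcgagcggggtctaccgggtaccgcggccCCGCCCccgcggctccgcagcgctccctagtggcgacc
Sfrp2: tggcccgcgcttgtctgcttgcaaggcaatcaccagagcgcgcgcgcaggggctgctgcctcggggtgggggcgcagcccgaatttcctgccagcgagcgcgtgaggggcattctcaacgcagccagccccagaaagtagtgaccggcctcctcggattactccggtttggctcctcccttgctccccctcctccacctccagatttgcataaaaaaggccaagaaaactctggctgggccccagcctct

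The 4 stretches had no 1 motif in common. In their 250-base windows *Wnt2* held 1 GC box, *Wnt4* held 8, *Wif1* held 2 and a TATA box that reads on the opposite strand, and *Sfrp2* held neither motif. In 32851 RefSeq windows of 250 bases before a start, 32.7% held the GC box and 12.4% the TATA box on either strand. The core of the site of TCF and LEF factors, the nuclear partners of β-catenin, is CTTTGA and was in 13.8% of them. It was in none of the 4 windows, which says only that these letters are not there. The 250-base windows of *Wnt2*, *Wnt4*, *Wif1* and *Sfrp2* held 20, 44, 21 and 16 CpG dinucleotides, at or above the highest quartile of 16 over all windows. Windows were found for 7 of the 10 members, and *Wnt5a*, *Sfrp1* and *Rspo3* had none.

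Whether members were seen in the same fibroblast was measured in 10 mice with at least 50 fibroblasts of at least 1000 UMIs, each cell thinned to 1000 UMIs. The share of fibroblasts with a UMI was highest for *Wif1*, from 16.3% over 37.0% to 51.7% of cells, and *Sfrp2*, from 22.0% over 32.8% to 41.5%. It was 20% at the median for *Wnt2*, 14.9% for *Sfrp1*, 11.9% for *Rspo3*, 9.31% for *Wnt4*, 4.28% for *Wnt5a*, 1.98% for *Dkk2*, 0.333% for *Wnt11* and 0 for *Frzb*. In 759 immune cells thinned alike, whose median depth was 3751 UMIs against 2341 in fibroblasts before thinning, the shares were 1.32% for *Wif1*, 0.922% for *Wnt11*, 0.791% for *Wnt2*, 0.527% for *Wnt4* and *Rspo3*, 0.395% for *Sfrp1*, 0.264% for *Sfrp2* and 0.132% for *Wnt5a*. The median fibroblast share of *Wnt11* thus lay below that of the immune cells.

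**Figure D4:**
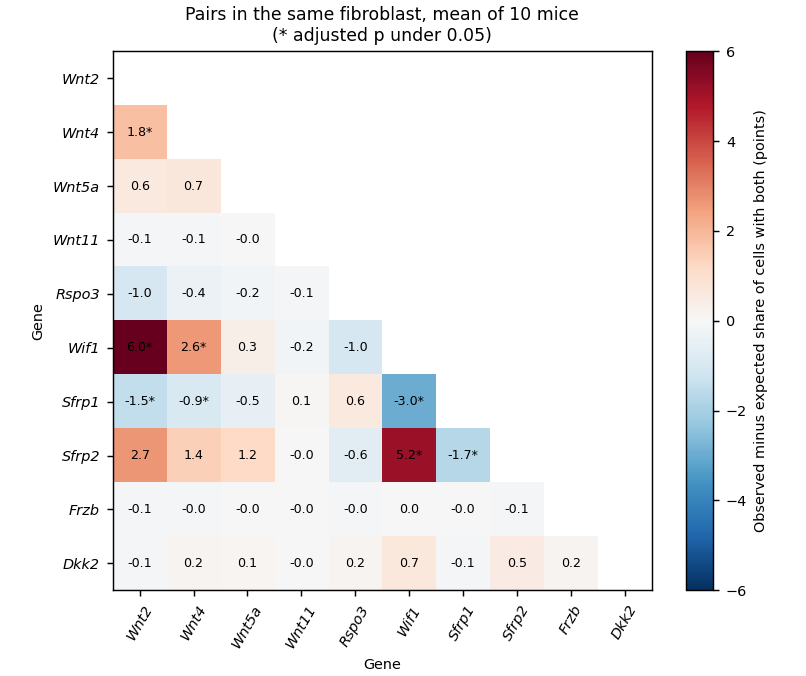
Observed minus expected share of fibroblasts with a UMI of both members, in percentage points, as the mean over 10 mice, for the 45 pairs, where the expected share is the product of the shares of each. Stars mark adjusted p under 0.05 in the exact sign-flip test. *Wnt2* with *Wif1* (5.96 points) and *Wif1* with *Sfrp2* (5.18 points) stand highest and *Wif1* with *Sfrp1* (-2.98 points) lowest.

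For each pair the observed share of cells with both was compared with the product of the 2 shares in the same mouse, by an exact two-sided sign-flip permutation test over the 10 mice, adjusted over 45 pairs. The smallest p that this design allows is 0.00195. *Wnt2* and *Wif1* were found together 5.96 ± 2.68 percentage points (mean ± SD) more often than expected, above 0 in 10 of 10 mice (exact p = 0.00195, adjusted p = 0.0176). *Wif1* with *Sfrp2* (5.18 ± 1.25 points), *Wif1* with *Wnt4* (2.58 ± 1.20) and *Wnt2* with *Wnt4* (1.80 ± 1.83) were also above 0 in 10 of 10 mice, with the same exact p. *Sfrp1* was on the other side of each called pair it was in. It was found with *Wif1* less often than expected in 10 of 10 mice, by -2.98 ± 1.16 points (exact test, adjusted p = 0.0176), and less often in 9 of 10 mice with *Sfrp2* (-1.72 ± 1.42, adjusted p = 0.0377), *Wnt2* (-1.48 ± 0.94, adjusted p = 0.0293) and *Wnt4* (-0.91 ± 0.74, adjusted p = 0.0440). These 8 pairs of 45 were called. In the 7 mice of the diet pool alone the smallest exact p is 0.0156, which gave adjusted p = 0.141, so that no pair was called. The differences there were 7.30 points for *Wnt2* with *Wif1* and 5.08 points for *Wif1* with *Sfrp2*, above 0 in 7 of 7 mice, and -3.47 points for *Wif1* with *Sfrp1*, below 0 in 7 of 7. With cells thinned to 2000 UMIs the 5 mice left cannot go below an exact p of 0.0625.

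Over 66 sums of 1 class in 1 mouse, from 20 mice, the levels of *Wnt2* and *Wif1* followed each other with a Pearson r of 0.96 on log2(CPM + 10), the highest of 4986 genes for each. The sums share libraries and mice, so these values are a description. The next most similar gene to both was *Rorb*, an orphan nuclear receptor (0.96 with *Wnt2* and 0.95 with *Wif1*). *Sfrp2* was closest to *Rorb* (0.97), *Wfdc1* (0.97) and *Chodl* (0.95), and *Wnt5a* to *Sfrp2* (0.91), *Nr2f1* and *Chodl*. *Sfrp1* was closest to genes outside the family, *Gsn*, which encodes the actin-severing protein gelsolin (0.94), *Serpinf1* (0.93) and *Vcan*, a matrix proteoglycan (0.92). *Rspo3* was closest to *Fxyd1* (0.94), *Osr2* (0.93) and *Smoc1* (0.92), and *Wnt4* to *Bmp7* (0.88), *Efemp1* (0.86) and *Tmem120a* (0.85). The nearest genes of *Dkk2*, *Wnt11* and *Frzb* reached 0.74, 0.69 and 0.67.

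Age and diet were compared in the summed fibroblasts of each mouse. Neither the age, the diet nor the strain comparison called a member.

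**Figure D5:**
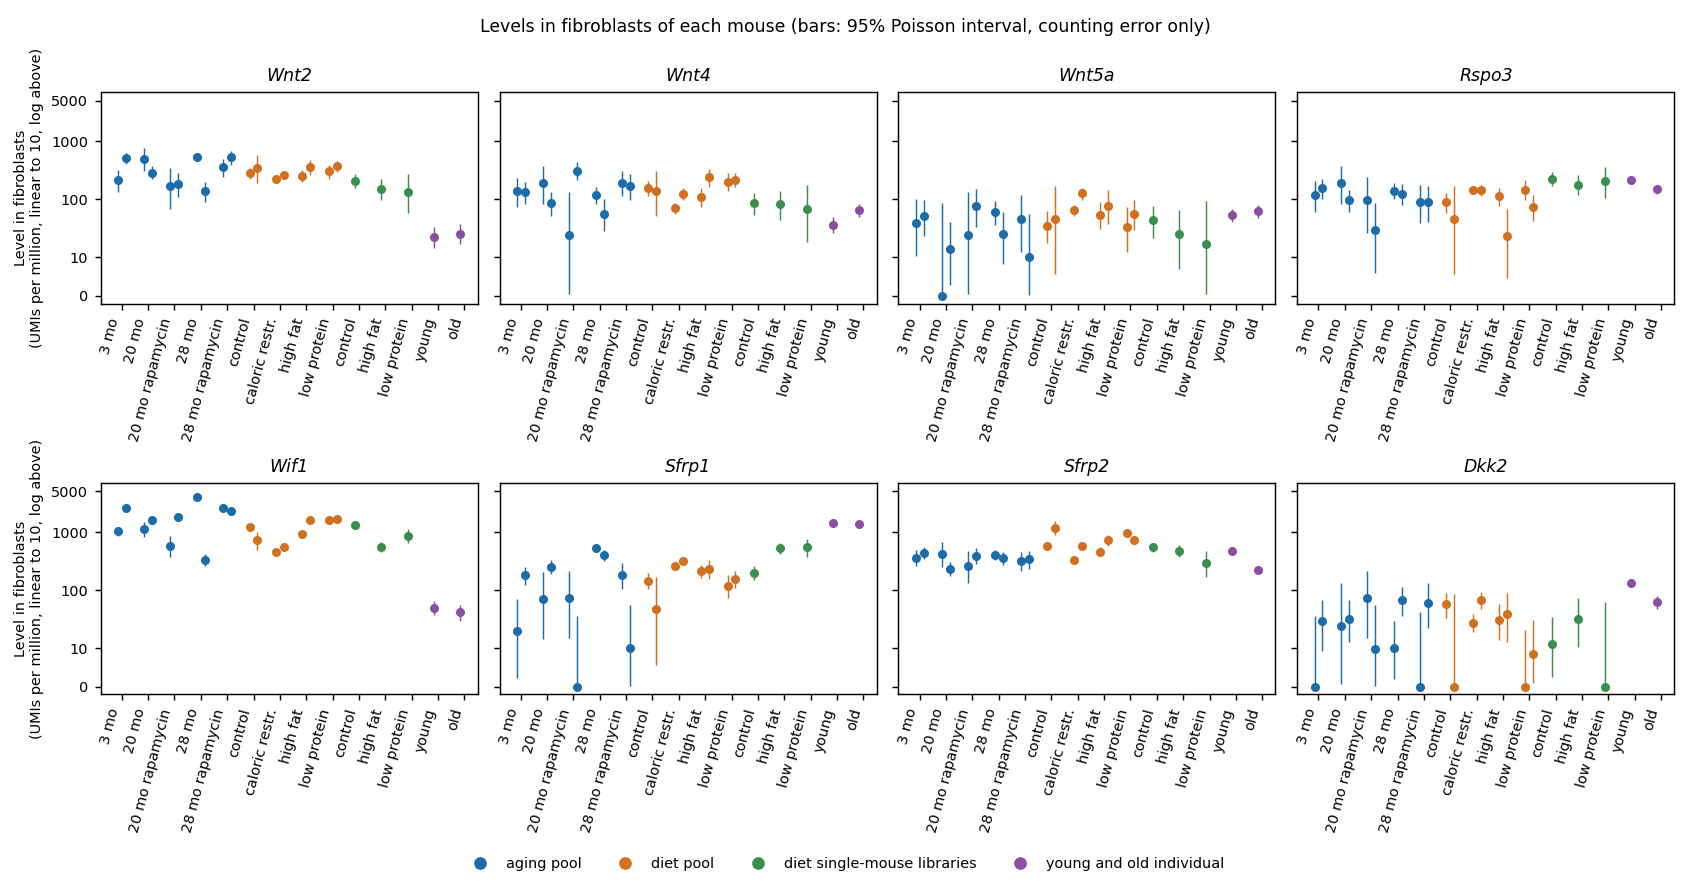
CPM of 8 of the members in all fibroblasts of each of the 23 mice (axis linear to 10 and logarithmic above), ordered by library set and condition, with exact 95% Poisson intervals that cover counting error only. *Wif1* and *Wnt2* drop in the young and the old individual, to at most 49.3 and 25.6 CPM, where *Sfrp1* rises to 1375 and 1449 CPM.

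For age, the 8 mice of 20 and 28 months were set against the 2 of 3 months, with rapamycin as a covariate and 11 to 52 fibroblasts a mouse. *Wif1* ran from 332 over 1734 to 3989 CPM in the older mice and was 1027 and 2632 CPM in the young ones, and *Wnt2* ran from 138 over 321 to 531 CPM against 215 and 513 CPM. Both young values lay inside the older range for each gene, and the differences were -0.04 ± 0.72 and -0.07 ± 0.54 (adjusted p = 1.00 for both). *Sfrp1* ran from 0 over 127 to 531 CPM in the older mice against 19.6 and 179 CPM, 1.64 ± 0.86 (adjusted p = 0.937). The 6 members tested gave 0 calls, as did all 2124 genes (0% called), although 104 genes had an unadjusted p under 0.05 and DESeq2 called 1. The 6 other pathway genes tested gave none, with a median of 0.21.

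On the high fat diet *Sfrp1* was 214, 231 and 522 CPM and on the control diet 46.2, 145 and 200 CPM. Here and for the low protein diet the last value of each group is the single-mouse library. The others are mice of the diet pool, and pool or single-mouse library was a block in the fit. The groups did not overlap, but the difference of 1.09 ± 0.29 had an unadjusted p of 0.00316 and an adjusted p of 1.00 in edgeR's fit across 2944 genes, of which 0% were called (0 by DESeq2, with 96 genes under an unadjusted 0.05). *Wif1* was 931, 1609 and 554 CPM on the high fat diet against 1240, 716 and 1342 CPM, and *Wnt2* 251, 362 and 153 CPM against 283, 346 and 207 CPM, both with overlapping groups and differences of -0.19 ± 0.35 and -0.12 ± 0.25. On the low protein diet *Sfrp1* was 118, 154 and 543 CPM, *Wif1* 1603, 1669 and 866 CPM and *Wnt2* 303, 373 and 136 CPM, all overlapping with the same controls. None of the 6 members tested was called, where 0.0672% of 2975 genes were. Of the wider pathway 10 and 9 genes were tested in the high fat and low protein comparisons and none was called, with medians of 0.11 and 0.08.

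Caloric restriction had 2 mice against 2 controls, all in 1 library. *Sfrp1* was 259 and 321 CPM under restriction and 46.2 and 145 CPM in controls, 1.27 ± 0.38. *Wif1* was 446 and 543 CPM against 716 and 1240 CPM, -0.99 ± 0.31. Neither pair of groups overlapped, and the unadjusted p-values of edgeR were 0.0102 and 0.0131 (adjusted p = 0.542 and 0.548). *Wnt5a* (64.4 and 126 CPM against 34.6 and 46.2 CPM) and *Rspo3* (143 and 144 against 46.2 and 88.1 CPM) were also apart, at 1.35 ± 0.51 and 0.86 ± 0.34, as were *Wnt2* (221 and 263 against 283 and 346 CPM) and *Wnt4* (70.4 and 123 against 139 and 154 CPM) in the other direction, and none of these passed. *Frzb* (5.41 and 6.87 against 0 and 0 CPM), which was not tested, lay apart too. How many of all genes had groups that lay apart was not counted. The *Clec3b*-positive share of fibroblasts was 29.0% and 25.4% under restriction against 15.2% and 7.69% in controls. Its part in these differences was not tested. In *Clec3b*-negative fibroblasts alone the *Wif1* difference was -0.58 (adjusted p = 0.727). In *Clec3b*-positive fibroblasts alone, with 1 control mouse, it was negative too. Over all 13 alternative settings the *Wif1* difference ran from -3.89 to -0.23. None of the 8 members tested was called, where 0% of 5530 genes were, 385 genes had an unadjusted p under 0.05 and DESeq2 called 3. Control mouse 2 had 13 fibroblasts, and without it *Wif1* was -1.32 (adjusted p = 0.0401), called, with the lone control assumed to vary like the restricted mice. The 23 other pathway genes tested gave no call, with a median of 0.28.

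The 2 C57BL/6J mice of 3 months in the aging pool were set against the 8 FVB/NJ mice of the diet pool, so strain and library cannot be told apart. *Sfrp2* was 362 and 438 CPM in C57BL/6J and ran from 335 over 652 to 1178 CPM in FVB/NJ, -0.73 ± 0.37 (adjusted p = 0.327), and *Wif1* was 1027 and 2632 CPM against 446 over 1085 to 1669 CPM, 0.77 ± 0.44 (adjusted p = 0.392). The groups overlapped for all 10 members and none of the 8 tested was called, where 2.97% of 3804 genes were. The 15 further pathway genes tested gave none.

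The young and the old individual differed most from the rest, and were compared with the 3 single-mouse diet libraries, which share strain and library type. Inside the family the order of levels turned over. *Wif1* was 49.3 CPM in the young and 41.3 CPM in the old individual against 1342, 554 and 866 CPM, a difference of -4.25 ± 0.34 (adjusted p = 6.49e-08). *Wnt2* was 22.3 and 25.6 CPM against 207, 153 and 136 CPM, -2.76 ± 0.30 (adjusted p = 2.94e-06). *Sfrp1* was 1449 and 1375 CPM against 200, 522 and 543 CPM, higher by 1.95 ± 0.30 (adjusted p = 1.09e-04), and *Dkk2* was 132 and 61.9 CPM against 11.7, 31.8 and 0 CPM, higher by 2.61 ± 0.57 (adjusted p = 0.00261). In all 4 the groups did not overlap, and the same held for *Wnt4* and *Wnt5a*, which were not called. How many of all genes lay apart in this way was not counted.

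These 4 of 8 members tested stood beside 12.7% of genes called higher and 10.1% called lower. *Rspo3* (218 and 147 CPM), *Sfrp2* (475 and 219 CPM), *Wnt5a* (53.0 and 62.9 CPM) and *Wnt4* (36.2 and 64.8 CPM) were not called. The epididymis markers given above moved with this comparison, as did the absent secretory class. The summed smooth muscle markers *Acta2*, *Tagln* and *Cnn1* also did, at 1993 and 2817 CPM in these fibroblasts against 490 to 630 CPM in the diet libraries, and so did the *Clec3b*-positive share, at 29.8% and 30.3% against 8.42% to 17.4%. Their part was not tested. Mouse, tissue and run cannot be told apart here, and with 1 mouse of each age no test of age was made. Without the control single-mouse library *Dkk2* was 2.18 higher and no longer called (adjusted p = 0.0680), and without the young individual *Sfrp2* was called at -0.94 (adjusted p = 0.0123). In *Clec3b*-negative fibroblasts alone *Wif1* (-3.90), *Wnt2* (-2.44), *Sfrp1* (1.98) and *Dkk2* (2.37) were again called. In *Clec3b*-positive fibroblasts alone, with 17 and 23 cells in the 2 diet libraries that could be used, 5 members were tested and none was called.

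Of 17 other pathway genes tested in this comparison 3 were higher and 3 lower, with a median of 0.17 beside -0.18 for the members. The glypican *Gpc3* was 87.4 CPM in the young and 101 CPM in the old individual, on 197 UMIs together, against 0 UMIs in the 3 diet libraries, and *Rspo1* (2.67 ± 0.53) and *Nkd1* (1.38 ± 0.39) were higher. *Wnt10a* (-5.06 ± 0.42), *Notum* (-2.45 ± 0.56) and *Fzd1* (-1.53 ± 0.27) were lower.

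Within the young and the old individual the members again differed by cell kind. *Sfrp2* was 643 and 325 CPM in their *Clec3b*-negative and 86.1 and 27.6 CPM in their *Clec3b*-positive fibroblasts, *Wif1* 70.6 and 61.1 against 0 and 5.51 CPM, and *Wnt2* 32.0 and 35.1 against 0 and 8.27 CPM. *Sfrp1* was 1234 and 1071 CPM in negative and 1945 and 1923 CPM in positive cells, so these 4 genes lay on the same sides as in the other mice. *Wnt4* lay on the other side, at 26.7 and 58.0 against 58.4 and 77.2 CPM, and *Rspo3* was 269 and 189 against 98.4 and 71.6 CPM. A test of the difference of the split between these 2 mice and the other 10 called none of the 6 members, with *Rspo3* at 1.87 ± 0.51 (adjusted p = 0.0857) and *Wnt4* at -1.99 ± 0.65 (adjusted p = 0.212). Their 3719 smooth muscle cells held 60.7% of their *Rspo3* UMIs, at 431 CPM in the young and 271 CPM in the old individual. Their basal cells carried *Wnt4* at 101 and 102 CPM, the highest *Wnt4* level of any of their classes.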

How the data were processed

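The deposited tables hold UMI counts per gene and cell that the authors made with Cell Ranger 6.0.1 for the 2 pools and 3.1.0 for the single-mouse libraries, with no normalization. The mice of each pool were assigned by the authors from multiplexing tags, and their conditions come from the deposited pool configuration and the study's sample list. Barcodes were kept from 500 genes and 200 UMIs upward when mitochondrial UMIs made up no more than 10%. The gates were *Col1a1* and *Col1a2* at 3 or more UMIs and 0.1% of the cell's UMIs (fibroblast), *Myh11* at 2 and 0.05% (smooth muscle), *Pecam1* at 2 (endothelial), *Krt5* and *Krt14* at 3 and 0.1% (basal), *Ptprc* and *Laptm5* at 3 (immune), each with an Svs share under 40%, and an Svs share of at least 20% (secretory). Cells that met several gates were left out as possible doublets, except that *Myh11* cells with collagen stayed in smooth muscle. Doublet scores were an alternative and left out 0.399% to 7.33% of cells. UMIs were summed per mouse and class with at least 10 cells and tested with edgeR 4.0.16 in R 4.3.3 (quasi-likelihood, TMM, filterByExpr, Benjamini-Hochberg over all genes tested, threshold 0.05). The mouse was a block between classes and rapamycin a covariate for age. Diet pool or single-mouse library was a block for the high fat and low protein diets. A script for these fits was tested on simulated data. The permutation test listed every sign flip in NumPy 2.4.6, and counting intervals were computed with SciPy 1.17.1. The mouse is the replicate. Counting intervals cover counting error only. Sequences are RefSeq GRCm38.p6.

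The members, gene lists and tests were chosen with earlier results of these data known. Members were named by the family rule, and other pathway genes as the largest called changes in each direction, up to 3. *Rspo3* overlaps the gene model *Gm20276* on its own strand, so its counts are uncertain there. Alternatives were DESeq2 1.42.0, library totals, no filter, other gates, thinning, single pools and leaving out mice. Levels of 1 further list of marker genes are not reported here.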

Additional observations from a re-analysis of the deposited data

Results flagged for a closer look

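Of 37 groups of 4 to 10 mice examined for a mouse far from the others, 5 held one. The limit used gives about 1 in 20 for independent, normal values. Some of these levels rest on few UMIs and the groups share mice, so the count was not set against chance. *Wnt5a* in *Clec3b*-negative fibroblasts of the diet pool was 148 CPM in caloric restriction mouse 2, on 60 UMIs in 144 cells, where the next mouse had 77.5 CPM. *Wnt2* in *Clec3b*-positive fibroblasts was 142 CPM in control mouse 1, on 6 UMIs in 16 cells, and 53.2 CPM in the next. *Sfrp2* in *Clec3b*-positive fibroblasts was 1702 CPM in low protein mouse 1, on 65 UMIs in 12 cells, and 593 CPM in the next. *Rspo3* in smooth muscle was 580 CPM in control mouse 2, on 28 UMIs in 14 cells, and 320 CPM in the next. *Wif1* in basal cells of the aging pool was 293 CPM in 28-month rapamycin mouse 2, on 52 UMIs in 20 cells, and 59.9 CPM in the next.

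The *Clec3b* split of *Rspo3* differed between the aging pool and the diet pool by 2.84 ± 0.58 (edgeR interaction, adjusted p = 0.0352), on 2 mice with 5 *Rspo3* UMIs in positive cells of the aging pool.

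Some members were higher in cells of no class than in the immune class of every mouse that had one. In the 21 mice this held for 6 of the 10, and their pooled levels were 100.7 CPM for *Wnt2*, 72.4 CPM for *Wnt4*, 40.4 CPM for *Rspo3*, 517 CPM for *Wif1*, 29.2 CPM for *Sfrp1* and 159 CPM for *Sfrp2*. *Wnt5a* was higher in 19 of 20 mice, *Dkk2* in 12, *Frzb* in 8 and *Wnt11* in 2. In the young and the old individual it held for 8, at 1.18 CPM for *Wnt2*, 13 CPM for *Wnt4*, 7.80 CPM for *Wnt5a*, 26.0 CPM for *Rspo3*, 1.64 CPM for *Wif1*, 12.2 CPM for *Sfrp2*, 0.103 CPM for *Frzb* and 0.795 CPM for *Dkk2*. Their immune classes had only 100 and 53 cells, where a low level can give no UMI, against 8229 cells of no class. *Frzb* rested on 4 UMIs and *Dkk2* on 31 in those, so for the lowest levels the comparison says little.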

How the results depend on the processing

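Of 1142 refitted values for named genes 1040 kept their direction and side of the threshold, 66 lost a call, 25 gained one and 11 turned. Those that turned were, with library totals, *Tcf7l2* in fibroblasts (0.82), *Wls* in smooth muscle (0.65), *Tnfrsf19* in basal cells (0.51) and *Tcf7l2* in secretory cells (-0.91). In the single-mouse libraries alone they were the smooth muscle differences of *Wnt4* (0.71), *Nkd1* (-0.64) and *Ryk* (-1.40). In the diet pool alone they were *Rspo3* in endothelial cells (-2.07) and *Sfrp1* in basal cells (-0.79), in the aging pool alone *Wnt4* in secretory cells (0.026), and with the collagen gate at 10 UMIs *Fzd1* in the young and old comparison (0.12). The cause was not tested, beyond library totals moving the median of all genes.

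Counts of members called moved by over 1.5 times as follows. Smooth muscle gave 3 in the single-mouse libraries in place of 5. Endothelial cells gave 8 without the filter on low counts and 1 in the single-mouse libraries in place of 4, and basal cells 8 without the filter and 2 with 1 collagen UMI in place of 4. The *Clec3b* split gave 2 with the collagen gate at 10 UMIs, 1 in the aging pool and 0 in the single-mouse libraries in place of 4. Without the filter age gave 2 in place of 0, with *Sfrp1* at 1.65. Caloric restriction gave 2 in *Clec3b*-positive cells, with 1 control mouse, and 0 to 1 as each mouse was left out, in place of 0. The young and old comparison gave 2 without the filter, 1 with the collagen gate at 10 UMIs and 0 in *Clec3b*-positive cells in place of 4. Pairs gave 0 with 2000 UMIs and 0 in the diet pool in place of 8, but 5 mice cannot reach the threshold and 7 mice did not at their smallest p, so these counts say nothing about stability.

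Calls over all genes ranged with the setting from 864 to 8127 in fibroblasts (3841), 1767 to 5170 in smooth muscle (2035), 3023 to 7590 in endothelial (4390), 3321 to 8121 in basal (4295) and 5311 to 11450 in secretory cells (6533). They ranged from 0 to 730 for the split (255), 0 to 42 for age (0), 0 to 31 for high fat (0), 0 to 28 for low protein (2), 0 to 127 for caloric restriction (0), 66 to 355 for strain (113) and 103 to 1839 for the young and old comparison (933). As each mouse was left out they ran from 0 to 2 for high fat, 0 to 7 for low protein, 28 to 57 for caloric restriction, 21 to 147 for strain and 600 to 1030 for the young and old comparison. Not run, for lack of mice, were smooth muscle in the aging pool, the 10-UMI collagen gate for age, strain and the diets, age and strain in *Clec3b*-positive cells, and pairs in the aging pool. The class and *Clec3b* comparisons were paired by the mouse as a block. For age, diet and strain no paired analysis was possible because GEO's labels number no replicates across the groups. *Frzb* and *Dkk2* were at 0 in most sums, and *Wnt11*, *Frzb* and *Dkk2* did not pass the filter on low counts in most comparisons.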
